A study of Mus musculus with 65 samples.

Results

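Myc, which encodes a transcription factor that drives cell growth and division, was examined together with the long interval on its Pvt1 side that holds its distal blood enhancers. The members were all ChIP-seq peaks of the 9 deposited peak sets that overlapped chr15:61700000-63900000 (build mm9), a window of 2.2 Mb that begins just before Myc. They numbered 151 of the 143220 peaks in all sets. Distances are from the centre of a peak to a position for Myc of 61.82 Mb, which is rounded to 10 kb, and positive values lie on the Pvt1 side. A peak within a few kb of this position therefore cannot be placed on either side of the Myc start, whereas spacings between peaks are exact.

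The series used ChIP-seq, in which DNA bound to a protein is pulled down with an antibody and sequenced, in cells derived from the mouse erythroblast line G1E-ER4. In the LDB1-AID subline LDB1 is fused to the AID degron, so that added auxin leads to degradation of LDB1, and in the SMC3-AID subline the cohesin subunit SMC3 is fused to it. Untreated LDB1-AID cells gave a CTCF, a RAD21, a YY1 and an LDB1 set, and LDB1-AID cells after 4 h of auxin gave an LDB1 set, each combining 2 replicates. Untreated SMC3-AID cells and SMC3-AID cells after 4 h of auxin each gave an LDB1 and a RAD21 set, each combining 3 replicates. All groups thus carry a degron allele, and no set of unmodified parental cells was used here. Whether a subline is a single clone is not given in the sources used here. The sets hold no RNA, so the labelled cell type could not be checked against marker genes.

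Myc is kept active in blood cells by enhancers that lie far beyond its neighbour Pvt1, a long noncoding RNA gene, in a stretch with few protein-coding genes. LDB1 does not bind DNA itself. It is held at erythroid enhancers by GATA1 and TAL1 through LMO2, and it can dimerise and so join distant sites. GATA1, TAL1 and LMO2 have no peak set here, so what held LDB1 at the sites of the window was not measured. Cohesin, of which RAD21 and SMC3 are subunits, extrudes loops of chromatin that stall at bound CTCF, and YY1 is a zinc finger protein found at many active promoters and enhancers. In the gene order of RefSeq (GRCm38.p6), Myc is followed by Pvt1, and the 5 protein-coding genes listed between Myc and Asap1 are Gsdmc, Gsdmc2, Gsdmc3, Gsdmc4 and Cyrib. The gasdermin C genes encode pore-forming proteins, and Cyrib encodes a RAC1-binding regulator of actin. Coordinates of that build were not used, so the genes, exons or introns that peaks fall in were not determined.

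Each peak is an interval of 400 bp with no height or score, so a peak is either called or not called. Replicates were combined before deposit, so replicate error is unknown throughout and no test between conditions could be made. Shares of the window are given with Wilson 95% intervals, which cover counting error only, beside the share over all peaks of the same set on chromosomes 1 to 19, X and Y. The read depth behind the sets is unknown. The sets ranged over all chromosomes from 54286 CTCF to 25 RAD21 peaks (SMC3-AID, auxin), and an unoccupied site and a site below a set's threshold cannot be told apart.

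The window held 42 RAD21, 40 CTCF, 16 LDB1 and 14 YY1 peaks in untreated LDB1-AID cells. In SMC3-AID cells it held 16 RAD21 and 12 LDB1 peaks before auxin and 0 RAD21 and 10 LDB1 peaks after it. After auxin LDB1-AID cells had 1 LDB1 peak. The peaks of LDB1 lay in 2 groups with little between them. Of the 16 peaks of LDB1-AID cells, 8 lay from 41.8 to 236.0 kb from Myc, over 194.6 kb. A further 5 lay from 1604.7 to 1748.1 kb, over 143.8 kb, and 3 lay between the groups. No LDB1 set had a peak on the other side of Myc within the window, and none had a peak within 41 kb of Myc. CTCF and RAD21 also lay at Myc and beyond the last LDB1 peak, up to 2072.3 and 2071.9 kb.

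**Figure D1:**
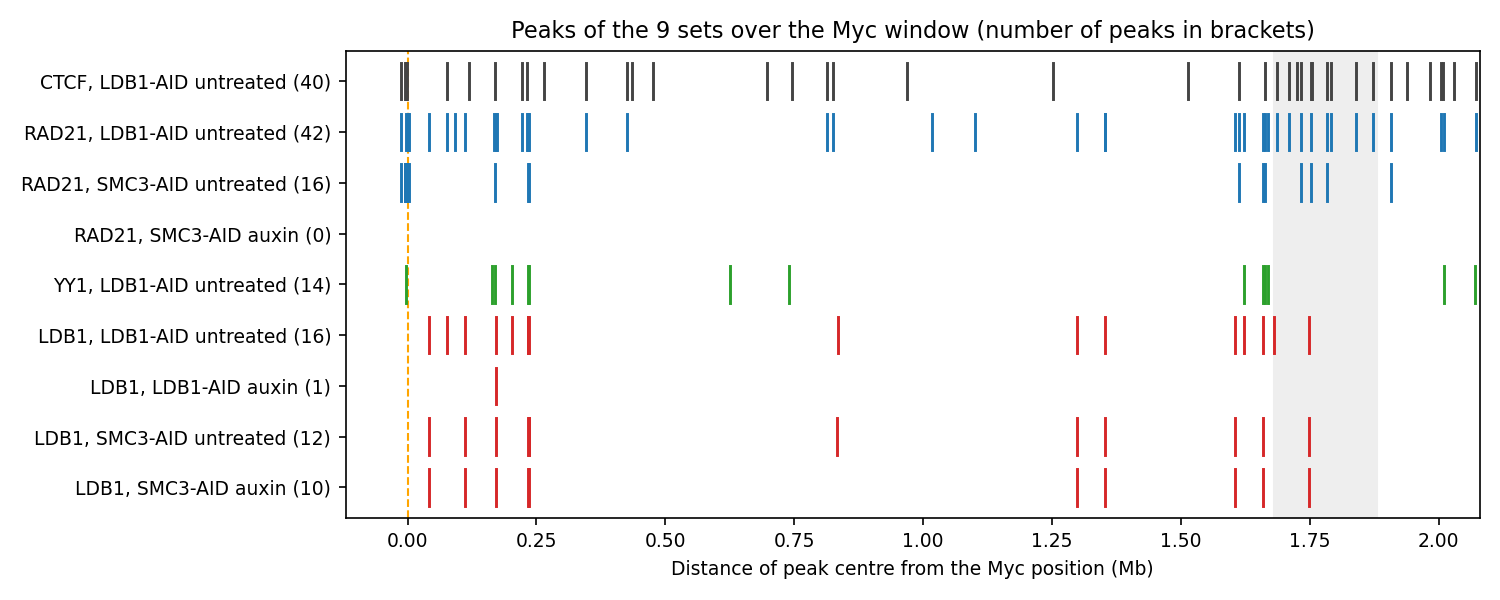
Peaks of the 9 sets over the window, each drawn as a line at the distance of its centre from the Myc position in Mb; the dashed line is Myc, the grey band is the distal interval at 63.5 to 63.7 Mb, and brackets give the number of peaks. The LDB1 row of untreated LDB1-AID cells has a group of peaks up to 236.0 kb from Myc and a group from 1604.7 kb on, the LDB1 row of auxin-treated LDB1-AID cells has 1 peak, and the RAD21 row of auxin-treated SMC3-AID cells is empty.

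At Myc itself the data showed architectural proteins and YY1, and no LDB1. LDB1-AID cells had 4 CTCF peaks within 25 kb, at -13.2, -5.1, -2.9 and -1.4 kb. The next CTCF peak on the Pvt1 side was 77.1 kb away. RAD21 of LDB1-AID cells lay at -13.2, -2.8, 0.8 and 3.7 kb, and the first pair overlapped CTCF peaks. A single YY1 peak lay at -3.4 kb (chr15:61816419-61816818), without overlap with CTCF, RAD21 or LDB1 of that subline, and overlapped the RAD21 peak of SMC3-AID cells at -3.0 kb. The nearest LDB1 peak (chr15:61861623-61862022) was 41.8 kb away in LDB1-AID cells, and it was also called in SMC3-AID cells before and after auxin.

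RAD21 at Myc differed between the untreated sublines in where it was called. SMC3-AID cells had 6 RAD21 peaks within 25 kb of Myc, at -13.2, -4.9, -4.1, -3.0, -1.3 and 3.5 kb. Of these, the peaks at -4.9, -4.1 and -1.3 kb had no RAD21 peak of LDB1-AID cells at them. The peaks at -4.9 and -1.3 kb lay on CTCF peaks of LDB1-AID cells, 156 and 60 bp from their centres. In the other direction, the RAD21 peak at 0.8 kb was called in LDB1-AID cells only. The set of SMC3-AID cells was the smaller one over the genome, with 15245 against 33204 peaks, yet held more peaks here. This difference between single calls was not tested.

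The 8 LDB1 sites next to Myc differed in what lay with them. They are named here by their distance in whole kb. The sites at +42 and +203 kb had no RAD21 peak, although at +42 kb a RAD21 peak of LDB1-AID cells had its centre 514 bp away. The site at +203 kb had YY1 with its centre 69 bp away. The sites at +76 and +111 kb had RAD21, with centres 13 and 35 bp away, and neither CTCF nor YY1. The site at +171 kb (chr15:61990409-61990808) carried all 4 proteins. There the centre of CTCF was 100 bp from that of LDB1, YY1 was 157 bp away and RAD21 37 bp away. RAD21 of SMC3-AID cells was called at this site too, 21 bp away. Its RAD21 peak was flanked by 2 further RAD21 peaks at 168.1 and 174.1 kb that had no other protein.

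Between 232.8 and 236.0 kb lay the densest group of LDB1 peaks in the window, 3 peaks over 3.6 kb. The first (chr15:62052630-62053029) carried CTCF, RAD21 and YY1, with CTCF at the edge, 308 bp from its centre. The site at +234 kb (chr15:62054287-62054686) and that at +236 kb (chr15:62055845-62056244) carried RAD21 and no CTCF. In SMC3-AID cells the former was called 410 bp further from Myc, which left no base in common with the call of LDB1-AID cells. A YY1 peak lay at 235.0 kb, with its centre 502 bp from LDB1 of LDB1-AID cells and 92 bp from LDB1 of SMC3-AID cells. RAD21 of SMC3-AID cells at this site was likewise called further out, 382 bp from RAD21 of LDB1-AID cells and 70 bp from LDB1 of its own subline. Within each subline the LDB1 and RAD21 centres were thus close (42 and 70 bp), while the LDB1 centres of the sublines were 410 bp apart.

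The middle of the window was sparse. From 300 to 1200 kb there were 9 CTCF, 6 RAD21, 2 YY1 and 1 LDB1 peaks in LDB1-AID cells and no RAD21 peak in SMC3-AID cells. That LDB1 site, at +834 kb (chr15:62653875-62654274), had no other protein at it, and its nearest CTCF centre was 9247 bp away. Of the 6 RAD21 peaks, 4 lay on CTCF. The others, at 1018.2 and 1100.9 kb, carried none of the other proteins, and the nearest CTCF centres were 50050 and 132754 bp away. From 1200 to 1600 kb, 2 LDB1 sites at +1299 kb (chr15:63118779-63119178) and +1354 kb (chr15:63173301-63173700) both carried RAD21 without CTCF or YY1. Their nearest CTCF centres were 46530 and 101052 bp away, the largest such distances among the 16 LDB1 sites.

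Peaks of the distal region are given in 2 parts, and no difference between the parts was tested. From 1600 to 1680 kb, just before the interval of the distal blood enhancers at about 63.5 to 63.7 Mb, there were 3 LDB1, 4 YY1, 6 RAD21 and 2 CTCF peaks. The edges of that interval are approximate, so peaks near an edge cannot be firmly placed outside or inside the enhancers. Widened by 50 kb at each end, the interval held 3 LDB1 and 3 YY1 peaks. All 3 LDB1 sites, at +1605 kb (chr15:63424457-63424856), +1623 kb (chr15:63442681-63443080) and +1660 kb (chr15:63479789-63480188), carried RAD21 without CTCF. The site at +1623 kb also carried YY1, 23 bp away. At +1660 kb the YY1 centre lay 448 bp from that of LDB1, just without overlap. Inside the interval itself, over 200 kb, there were 10 CTCF, 8 RAD21, 2 LDB1 and 0 YY1 peaks. All 8 RAD21 peaks there lay on CTCF, against 80.9% of all RAD21 peaks. Neither LDB1 site there, at +1681 kb (chr15:63501099-63501498) and +1748 kb (chr15:63567895-63568294), carried RAD21, CTCF or YY1, and the nearest CTCF centres were 4877 and 4276 bp away. Over the genome 61.5% of LDB1 peaks carried none of these 3 proteins.

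The CTCF peaks nearest the approximate edges of the distal interval are given here, out of 40 in the window. The last CTCF peak before it lay at 1664.3 kb, with RAD21 and YY1, and the first inside lay at 1686.2 kb, with RAD21. The last inside lay at 1873.8 kb and the next beyond at 1907.5 kb, both with RAD21. From 1880 kb to the end of the window there were 7 CTCF, 4 RAD21, 2 YY1 and 0 LDB1 peaks. All 4 RAD21 peaks lay on CTCF, against 80.9% of all RAD21 peaks. CTCF peaks were also counted outward from the rounded Myc position, leaving out those that overlap the site itself. The CTCF peaks at Myc had negative distances and were not counted, and for those within a few kb of it the side is not certain. On this count 0 CTCF peaks lay between Myc and the LDB1 sites at +42 and +76 kb. There were 2 before +171 kb, 14 before +834 kb, 17 before +1605 kb and 23 before +1748 kb.

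**Figure D2:**
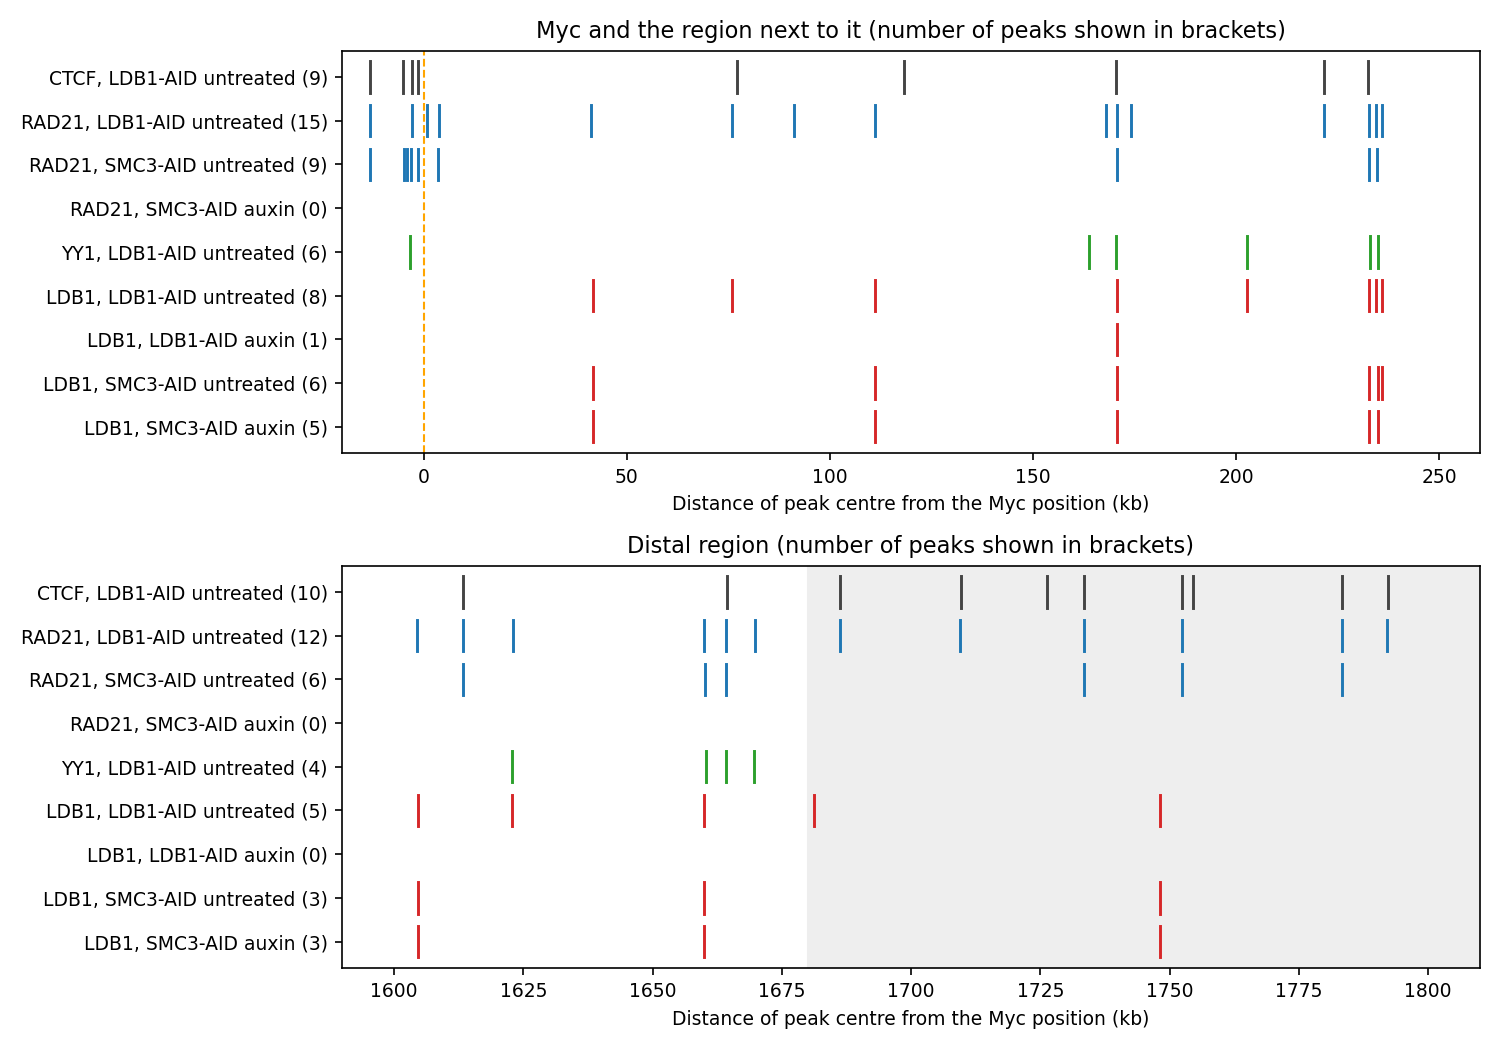
Peaks near Myc (upper panel) and in the distal region (lower panel), drawn at the distance of their centres from the Myc position in kb; the dashed line is Myc, the grey band is the part of the distal interval in view, and brackets count the peaks shown. LDB1 lines stand over RAD21 lines at most sites up to 1660 kb, and the 2 LDB1 lines in the grey band have neither RAD21 nor YY1.

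A larger share of LDB1 peaks carried RAD21 in the window than over the genome, mostly away from CTCF. The interval of the window left out the value of the genome, and no test of the difference was run. Such an interval treats peaks as independent, although some lay close together, such as the 3 LDB1 peaks with RAD21 over 3.6 kb. In LDB1-AID cells 11 of the 16 LDB1 peaks carried RAD21, which was 68.8% (Wilson 95% interval 44.4 to 85.8), against 25.1% of all LDB1 peaks. Their median distance to the nearest RAD21 centre was 0.13 kb, against 5.32 kb over all LDB1 peaks. Of the 11, 8 carried RAD21 alone, which was 50% of the LDB1 peaks of the window against 12.8% of all. Conversely 4 LDB1 peaks had none of the other 3 proteins, 25% against 61.5% of all. With the RAD21 set of SMC3-AID cells, 4 of these 16 peaks carried RAD21 (25%, 10.2 to 49.5), against 4.7% of all LDB1 peaks with that smaller set. They were at +171, +233, +234 and +1660 kb. Within SMC3-AID cells 4 of 12 LDB1 peaks carried RAD21 of that subline (33.3%, 13.8 to 60.9), against 5.2% of all, and 4 of 16 RAD21 peaks carried LDB1 (25%, 10.2 to 49.5), against 2.94% of all.

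YY1 and CTCF at LDB1 sites stayed near the level of the genome. YY1 was present at 4 of 16 LDB1 peaks (25%, 10.2 to 49.5), against 20.4% of all. CTCF was present at 2 of 16 (12.5%, 3.5 to 36), against 7.4% of all. Both intervals include the value over all peaks, so no difference was detectable with this many peaks. The median distance from an LDB1 centre to the nearest CTCF centre was 6.09 kb in the window and 6.32 kb over all LDB1 peaks.

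Seen from RAD21, a smaller share of peaks lay on CTCF than over the genome, again by the interval and without a test. Among the 42 peaks called for RAD21 in LDB1-AID cells, 23 overlapped CTCF (54.8%, 39.9 to 68.8), against 80.9% of all RAD21 peaks. From Myc to 300 kb it was 3 of 13. LDB1 was present at 11 of the 42 (26.2%, 15.3 to 41.1), against 8.15% of all. Of the 19 RAD21 peaks without CTCF, 9 carried LDB1 (47.4%, 27.3 to 68.3), against 32.8% of all such peaks, a value that lies inside the interval. Among the 23 with CTCF, 2 carried LDB1 (8.7%, 2.42 to 26.8), against 2.34% of all. In SMC3-AID cells 12 of 16 RAD21 peaks overlapped CTCF of LDB1-AID cells (75%, 50.5 to 89.8), against 92.3% of all. Seen from CTCF, 23 of 40 peaks carried RAD21 (57.5%, 42.2 to 71.5), against 49.5% of all.

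The 14 YY1 peaks were mixed. LDB1 was present at 4 (28.6%, 11.7 to 54.6; 17.1% of all YY1 peaks), RAD21 at 6 (42.9%, 21.4 to 67.4; 27.6% of all) and CTCF at 4 (28.6%, 11.7 to 54.6; 17.1% of all). The YY1 peaks at 626.2 and 739.8 kb lay in the sparse middle, without any of the other proteins. The distal YY1 peaks at 1664.2 and 1669.7 kb carried RAD21 without LDB1.

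**Figure D3:**
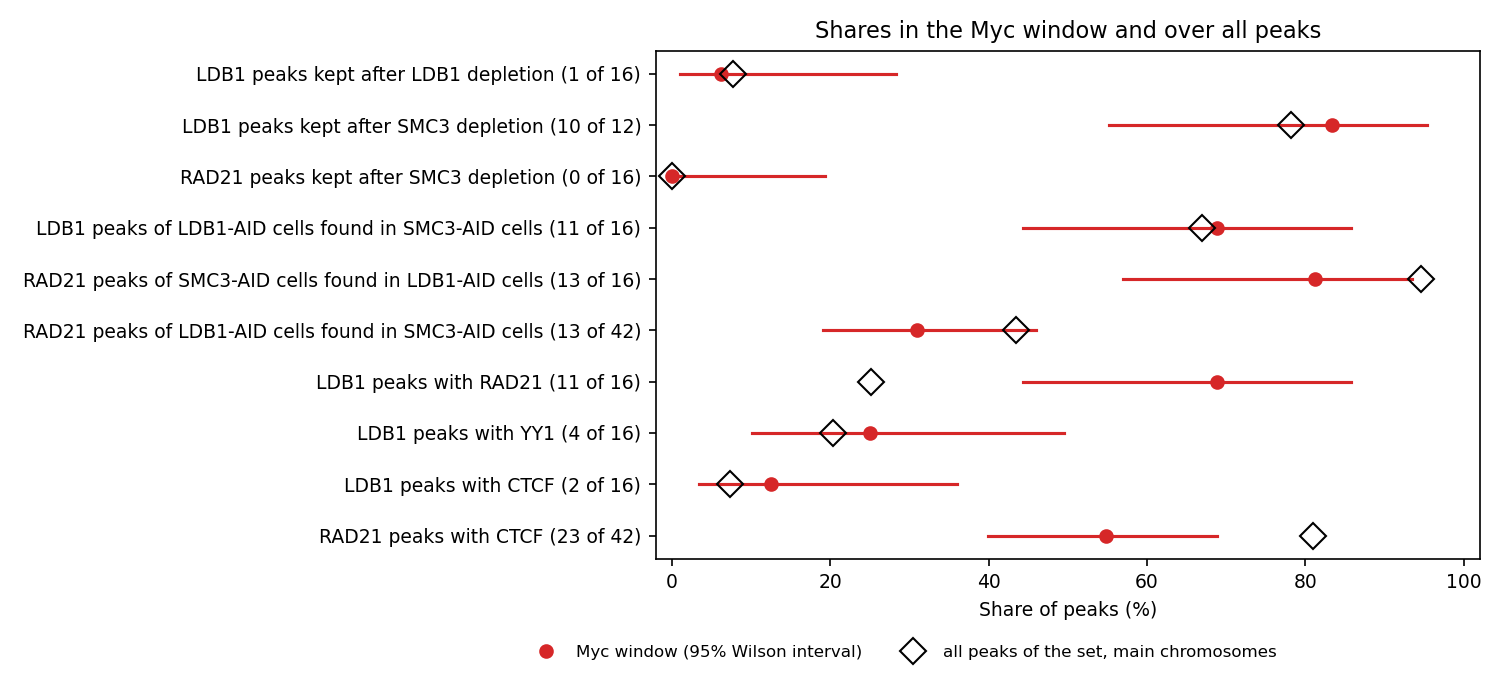
Shares of peaks in percent for 10 comparisons: filled points are the window with Wilson 95% intervals, and open diamonds are all peaks of the same set on the main chromosomes. The interval lies away from the diamond for LDB1 peaks with RAD21 (68.8% against 25.1%), for RAD21 peaks with CTCF (54.8% against 80.9%) and, by a small margin, for RAD21 peaks of SMC3-AID cells found in LDB1-AID cells (81.2% against 94.6%).

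After depletion of LDB1, the site at +171 kb was the 1 LDB1 site of the window that was still called. In LDB1-AID cells, 1 of 16 peaks was kept after 4 h of auxin (6.25%, 1.11 to 28.3), where kept means an overlap of 1 bp or more with an LDB1 call after auxin. Over all LDB1 peaks 7.77% were kept, so the share in the window was near that of the genome. The kept call (chr15:61990457-61990856) had its centre 48 bp from the untreated one. No other LDB1 call was made in the window after auxin (1 of 1 at an untreated peak), and over the genome 80.2% of LDB1 calls after auxin were at untreated peaks. It was at one of the 2 LDB1 sites of the window that carried CTCF, RAD21 and YY1 together. The other such site, at +233 kb, was not called after auxin. Over all LDB1 peaks with these 3 proteins 20.6% were kept (36 of 175). The share was higher, at 29%, for the 791 LDB1 peaks that lacked CTCF and had both RAD21 and YY1, and the 1 such peak of the window, at +1623 kb, was not kept. The peak with YY1 alone, at +203 kb, was not kept either, against 9.81% of such peaks kept over the genome. Of the 8 LDB1 peaks of the window with RAD21 alone 0 were kept, against 14.9% of the 1369 such peaks over the genome. Of the 4 with none of the 3 proteins 0 were kept, against 3.08% of such peaks over the genome. With 8 or fewer peaks per class in the window, these counts of 0 cannot be told apart from the shares over the genome. None of the 5 sites in the distal region, and none of the 3 between the groups, was called after auxin. CTCF, RAD21 and YY1 of auxin-treated LDB1-AID cells were not analysed here.

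After depletion of the cohesin subunit SMC3, most LDB1 sites were still called and no RAD21 site was. Of the 16 RAD21 peaks in untreated SMC3-AID cells, 0 were kept after auxin (Wilson 95% interval 0 to 19.4%), and over all RAD21 peaks 0.092% were kept. Taken as 3 counts of 16, the limit that a count of 0 allows is 18.8%. Of the 12 LDB1 peaks, 10 were kept (83.3%, 55.2 to 95.3), against 78.2% of all, again near the level of the genome. The kept LDB1 sites were +42, +111, +171, +233, +234, +1299, +1354, +1605, +1660 and +1748 kb. They include sites in both groups and all 3 distal sites called in untreated SMC3-AID cells. The sites not called after auxin were +236 kb and +834 kb. The first lay next to sites that were kept, and the second was the only LDB1 site from 300 to 1200 kb. The sites at +1299 and +1354 kb, which also lay between the groups, were kept. All 4 LDB1 sites that had RAD21 in untreated SMC3-AID cells (+171, +233, +234 and +1660 kb) were kept. The kept share of all such LDB1 peaks over the genome was not computed, and of all LDB1 peaks 78.2% were kept. All 10 LDB1 peaks called after auxin had been called before it, against 92.8% over the genome, so no new LDB1 site appeared in the window. Loss of single calls at 2 sites has no replicate check.

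**Figure D4:**
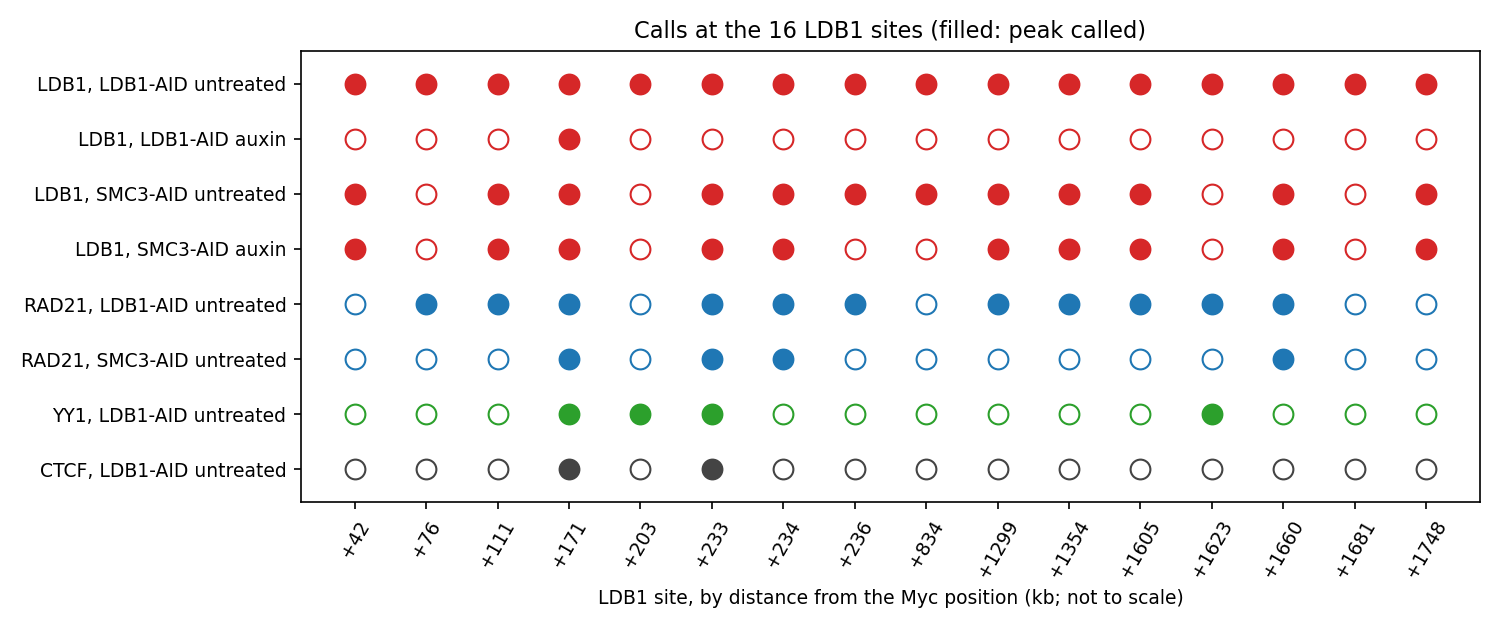
Calls at the 16 LDB1 sites, ordered by distance from the Myc position in whole kb (not to scale), with 1 row for each of 8 peak sets; the RAD21 set of auxin-treated SMC3-AID cells, which has no peak in the window, is left out, and filled circles are called peaks. The site at +171 kb is filled in all 8 rows, and the auxin row of LDB1-AID cells is filled there only.

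The untreated sublines shared most LDB1 sites. Of the 16 LDB1 peaks of LDB1-AID cells 11 overlapped a peak of SMC3-AID cells (68.8%, 44.4 to 85.8), against 67% of all. The 5 that did not were +76, +203, +234, +1623 and +1681 kb, of which +234 kb was the site called 410 bp apart. By class, 8 of the 11 LDB1 peaks with RAD21 were found (72.7%, 43.4 to 90.3; 75.8% of all such peaks) and 3 of the 5 without (60%, 23.1 to 88.2; 64.1% of all). In the other direction, 11 of 12 were found (91.7%, 64.6 to 98.5), against 84.1% of all. The LDB1 set of SMC3-AID cells thus had no site in the window away from those of LDB1-AID cells. Where both sublines had a call at a site, +234 kb included, the median between centres was 22 bp over 22 pairs of calls. The largest distance was 410 bp, at +234 kb. Each pair set a call of untreated LDB1-AID cells against one of SMC3-AID cells before or after auxin. The same site could thus give a pair for each condition.

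A smaller share of the RAD21 than of the LDB1 peaks of LDB1-AID cells was found in SMC3-AID cells. With 16 RAD21 peaks in the window against 42, the smaller set of SMC3-AID cells limits this share. In the other direction, over all peaks, 94.6% of RAD21 and 84.1% of LDB1 peaks of SMC3-AID cells were found. Untreated SMC3-AID cells had a RAD21 call at 13 of the 42 RAD21 sites of LDB1-AID cells (31%, 19.1 to 46), against 43.4% of all. By class it was 10 of 23 with CTCF (43.5%, 25.6 to 63.2; 50.7% of all) and 3 of 19 without (15.8%, 5.52 to 37.6; 12.4% of all). The 3 without CTCF were at 3.7, 234.4 and 1660.0 kb, the last 2 of which were LDB1 sites. In the other direction 13 of 16 were found (81.2%, 57 to 93.4), against 94.6% of all, and the 3 not found all lay within 5 kb of Myc.

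The window was richer in LDB1 than most of the genome, but not among the richest regions. The main chromosomes were divided into 1145 adjoining tiles of 2.2 Mb, which are not matched for gene content. The median tile held 6 LDB1 peaks (quartiles 1 and 14), and 22.3% of tiles held at least the 16 of the window. For RAD21 the median was 22 and 25.2% of tiles held at least 42. For YY1 it was 7 and 30.3% held at least 14, and for CTCF it was 36 and 45.2% held at least 40. Of its 16 LDB1 peaks 7 had another within 25 kb (43.8%, 23.1 to 66.8), against 62.3% of all LDB1 peaks, a value inside the interval. Within 10 kb it was 3 of 16 (18.8%, 6.59 to 43), against 41.7% of all. Within 100 kb it was 15 of 16 (93.8%, 71.7 to 98.9), against 88.1% of all, the exception being the site at +834 kb.

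**Figure D5:**
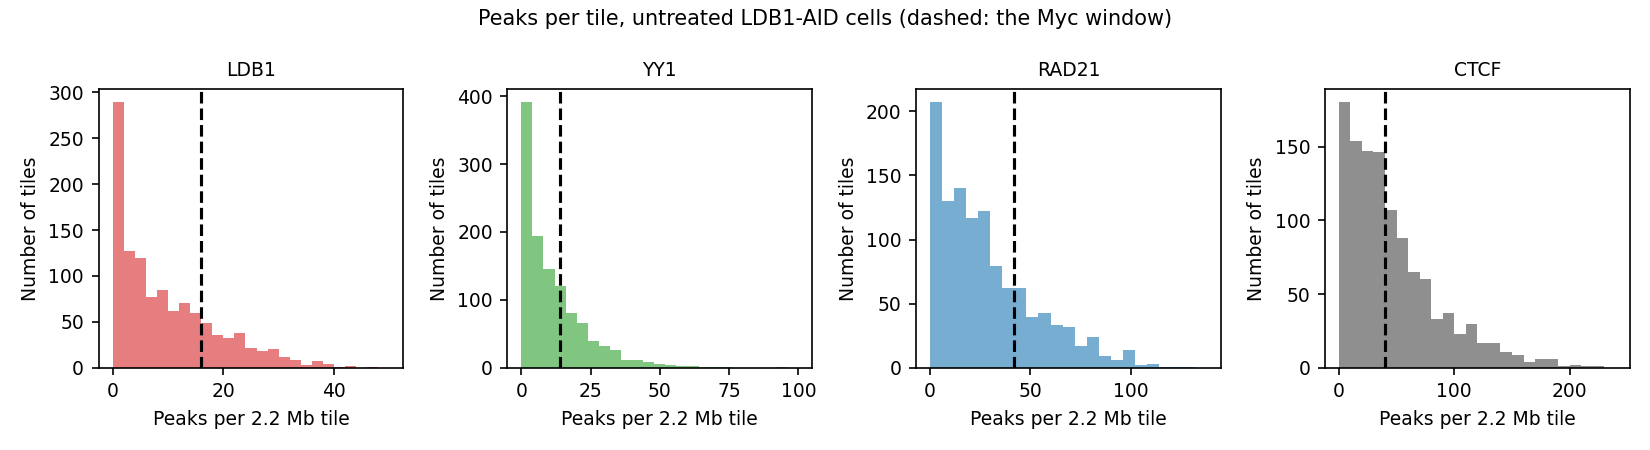
Number of 2.2 Mb tiles of the main chromosomes (y axis) by the number of peaks they hold (x axis), for the 4 sets of untreated LDB1-AID cells; the dashed line is the Myc window. The window lies above most tiles for LDB1 (16 peaks against a median of 6) and near the median for CTCF (40 against 36).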

How the data were processed

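Chromatin of mouse erythroblast sublines was profiled by ChIP-seq, and the labels describe 65 samples, of which 22 are combined in the 9 deposited peak sets used here. The other 43 samples were not analysed here. Per the submitters' processing notes the build was mm9, and Bowtie2, MACS2 2.2.9.1 and deepTools 3.5.1 were named without their roles. The consensus rule, threshold and filters are not given in the sources used here. The sets deposited by the authors hold positions only (bp), with no score.

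Sets were assigned to groups from the sample labels. Peaks with at least 1 bp in the window were taken, and overlap was at least 1 bp unless stated. Positions are counted from 1. LDB1 sites are LDB1 peaks of the 4 LDB1 sets merged where they overlap, in chains. At +234 kb the call of auxin-treated SMC3-AID cells joins the untreated calls of the sublines, which do not overlap each other. Computation used Python 3.11.15, numpy 2.4.6 and scipy 1.17.1. On simulated data, overlap counting was tested and recovered 400 of 400 planted overlaps among 2000 peaks.

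The window, the distance classes and the other comparisons were chosen with earlier results of these data known. The rule for named peaks took all LDB1 sites, the other peaks nearest Myc and at LDB1 sites, and the CTCF peaks bordering the distal interval. Others, and the edges at 300, 1200 and 1600 kb, were chosen after their values were seen.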

Additional observations from a re-analysis of the deposited data

How the results depend on the processing

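For 41 results, 141 alternative values were computed, 68 of them chosen after seeing the data, and 124 stayed within 1.5 times of the reported count. No paired analysis was possible because the replicates were combined in each deposited set, so leaving out a replicate was not possible either. The counts that moved were these. With the RAD21 set of SMC3-AID cells, the window held 16 RAD21 peaks, the distal interval held 3, LDB1 peaks with RAD21 numbered 4 and RAD21 peaks with CTCF 12. With the LDB1 set of SMC3-AID cells, LDB1 peaks with an LDB1 neighbour numbered 3, and the distal interval held 1 LDB1 peak. Why the sets of the sublines differ in size was not tested. Narrowed by 50 kb at each end, the distal interval held 1 LDB1, 4 RAD21 and 5 CTCF peaks, and widened by 50 kb it held 3 YY1 peaks against 0. LDB1 peaks with YY1 numbered 7 when a gap of at most 1 kb was allowed, and under a rule of 50% overlap 1 LDB1 peak had CTCF. Among results added after seeing the data, YY1 peaks with RAD21 numbered 10 with the 1 kb gap, and with 50% overlap YY1 peaks with CTCF numbered 2 and RAD21 peaks without CTCF found in SMC3-AID cells 1. LDB1 peaks with a neighbour numbered 3 within 10 kb and 15 within 100 kb. The numbers kept after LDB1 depletion and after SMC3 depletion moved under none of their 4 alternatives each. With 16 or fewer peaks, shares have wide intervals, and the unknown depth leaves sites below a set's threshold unseen.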

Other observations

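The side of Myc away from Pvt1 was also examined beyond the window. The nearest LDB1 peak on that side lay at -2.48 Mb in LDB1-AID cells (chr15:59343676-59344075), and SMC3-AID cells had a call at the same place before and after auxin (chr15:59343759-59344158). YY1 had its next peak on that side at -2.34 Mb, outside the peak at Myc. CTCF was nearer, at -369.7 kb, and RAD21 of LDB1-AID cells lay at -572.6 kb. Within 500 kb of Myc, LDB1-AID cells had 0 LDB1, 1 YY1, 2 RAD21 and 5 CTCF peaks on that side, and 8 LDB1, 5 YY1, 15 RAD21 and 10 CTCF peaks on the Pvt1 side. RAD21 of untreated SMC3-AID cells had 5 peaks on that side and 4 on the Pvt1 side. These counts are split at the rounded Myc position. The YY1 peak and some of the CTCF and RAD21 peaks lie within a few kb of it, so their side is not certain. Past the far end of the window the next LDB1 peak lay 2.32 Mb from Myc (chr15:64134879-64135278), and it was called in SMC3-AID cells before and after auxin. These positions were chosen after their values were seen.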
